A study of Mus musculus with 8 samples.

Results

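The genes described here are the NRF2 pathway, glutathione and antioxidant genes of mouse bone marrow-derived dendritic cells (BMDCs), a list of 36 genes given by symbol, of which 30 could be measured among the 18193 genes on the arrays. Each gene is represented by 1 probe set, the one with the highest mean log2 signal over the 8 arrays among probe sets annotated with that symbol alone. Prdx1, Ftl1 and Esd lie only on probe sets annotated with several symbols, and the annotation used here lists no probe set for Prdx5, Prdx6 and G6pdx. These 6 members have no value below. Marrow was taken from BALB/c females 6 weeks old and kept for 9 days with GM-CSF (200 U/mL by the labels), after which the non-adherent cells were used as immature DCs. Treated cells received [BF/S+L/Ep], the butanol fraction of Echinacea purpurea stem and leaf tissue, at 75 μg/mL for 4 h or 12 h. The extract was dissolved in DMSO, and control cells received the vehicle alone (0.1%), so that all 4 groups contain DMSO. RNA of each treatment and time was hybridized to 2 Affymetrix Mouse Genome 430 2.0 arrays. The arrays asked which genes of immature DCs respond to the extract.

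NRF2, encoded by Nfe2l2, is a transcription factor that KEAP1 holds at a low level by directing its degradation. Oxidants and electrophiles modify KEAP1, NRF2 then accumulates, pairs with a small MAF protein such as MAFG, and binds antioxidant response elements (AREs) of genes that make glutathione, reduce thioredoxin, supply NADPH and break down heme. In dendritic cells, glutathione and cystine uptake are known to bear on the response to oxidative stress and on antigen presentation.

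As a measure of background, 86 probe sets of olfactory, vomeronasal and taste receptors were taken, and their 95th percentile on an array, 66.5 to 107 in MAS5 signal (the linear intensity unit deposited), is called the reference. It was 79.5 to 107 on the DMSO arrays and 66.5 to 75.6 on the [BF/S+L/Ep] arrays, so every DMSO array had the higher background. A gene is called detected where it exceeded the reference on 4 or more arrays. All 13 dendritic cell markers examined, Itgax, H2-Ab1 and Cd74 among them, were detected, and so were 9 of 10 macrophage markers and 0 of 5 B cell markers. Also detected were 3 of 9 neutrophil, 2 of 8 mast cell, 1 of 6 T and NK cell and 1 of 4 eosinophil markers. Of 6 plasmacytoid dendritic cell markers, 4 were detected. Of 9 erythroid genes, Car2 and Tfrc were detected, while the defining markers Hba-a1, Alas2 and Car1 were above the reference on 0 arrays. Car2 was the 1 gene of that list that passed the test for the extract averaged over both times, and the list's part in the members' values was not tested. The summed level of the erythroid list was 5381 to 5660.3 in DMSO and 6502 to 6734 in [BF/S+L/Ep] at 4 h, and 5251 to 5546 and 8787 to 8909 at 12 h. Car2 and Tfrc made up nearly all of this sum, at 3506 and 5023 on the array with 8787. No other gene of the list was detected, so the sum describes these 2 genes and not the list. Of the members, 28 were above the reference on 8 arrays, Osgin1 on 7 and Gsta3 on 0. Log2 signals of the 2 arrays of a group correlated at r = 0.904 to 0.912 over all probe sets and at 0.968 to 0.971 over those above the reference.

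Promoter stretches are shown for the letters that NRF2 and its partners read. They are printed only for members with a match, and not for all of these. RefSeq promoters (GRCm38.p6, 250 bases before to 50 after the start) were at hand for 31 of the 36 members and not for Gclc, Gsr, Prdx6, Hmox1 and Slc48a1. The ARE core TGACNNNGC occurred on either strand in 11 of the 31 (35.5%), Nfe2l2, Mafg, Gclm, Gsta3, Txnrd1, Srxn1, Prdx1, G6pdx, Pgd, Me1 and Sod1, and in 12.4% of all 32851 promoters, which is 14% of the 27025 genes when counted by gene as the members are. The spelling TGAGNNNGC occurred in 6 of the 31 (19.4%) in 17.6% of all promoters and in 19.8% of genes, and the AP-1 element TGANTCA, which can overlap it, in 4 (12.9%), in 7.81% of promoters and in 8.97% of genes. Capitals mark the match, a match on the opposite strand reads from right to left as its complement, and the distance is that of its first printed base from the start. A match is a description of letters and not of binding.
Gclm, chr3:122245408-122245446, plus strand, 134 bases before the start: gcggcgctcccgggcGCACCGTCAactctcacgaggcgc
Txnrd1, chr10:82859099-82859137, plus strand, 92 bases before the start: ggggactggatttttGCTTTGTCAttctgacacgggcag
Srxn1, chr2:152105351-152105389, plus strand, 158 bases before the start: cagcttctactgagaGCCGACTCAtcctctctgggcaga
Srxn1, chr2:152105464-152105502, plus strand, 45 bases before the start: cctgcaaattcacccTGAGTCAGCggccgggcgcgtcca
Slc7a11, chr3:50443687-50443725, minus strand, 97 bases before the start: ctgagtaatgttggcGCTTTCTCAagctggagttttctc
Mafg, chr11:120633746-120633784, minus strand, 222 bases before the start: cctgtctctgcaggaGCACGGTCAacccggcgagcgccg
Nfe2l2, chr2:75704880-75704913, minus strand, 240 bases before the start: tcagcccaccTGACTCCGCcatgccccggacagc
The stretches of Gclm, Txnrd1, Mafg and Nfe2l2 match TGACNNNGC, and those of Srxn1 and Slc7a11 match TGAGNNNGC. The TGACNNNGC match of Srxn1, which begins 28 bases after the start, is not printed. In Srxn1, the printed match nearer to the start also holds an AP-1 element. The promoter of Prdx4, which passed the test between 4 h and 12 h (below), held none of the letters searched. Of the printed genes, Nfe2l2, Txnrd1, Srxn1 and Slc7a11 passed in no contrast of the main limma fit.

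Several genes of glutathione synthesis and of the thioredoxin branch gave higher signals with [BF/S+L/Ep] than with DMSO alone, and 1 of the 30 members, Gclc, passed the test. Averaged over both times, Gclc, which encodes the catalytic subunit of the enzyme that makes the first bond of glutathione, rose 1.53-fold. In the limma fit (Benjamini-Hochberg adjustment over all 45037 probe sets, threshold 0.05), 0 of the 30 members passed at 4 h and 0 at 12 h, against 2 (0.00444%) and 9 (0.02%) of all probe sets. At an unadjusted p under 0.05, 5 members were higher and 0 lower at 4 h, and likewise 5 and 0 at 12 h, where 2.49% and 2.48% of all probe sets were so at 4 h and 2.62% and 3.34% at 12 h. Of the 10879 genes detected at their brightest probe set, 2.58% were higher and 2.22% lower at 4 h in this way, and 3.53% and 4.29% at 12 h. In the average of both times, 1 member passed, higher, against 40 probe sets (0.0888%) and against 29 of the detected genes (0.267%). The median log2 difference of the members was 0.07 at 4 h, 0.08 at 12 h and 0.06 in the average, and that of all probe sets -0.02, -0.03 and -0.03. The tests measure the spread between the arrays of a group, which the study's text calls biological replicates, while the labels do not say whether each came from its own culture. In RNA of a whole culture, fewer cells of a type and less RNA per cell cannot be told apart.

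The order of the arrays describes the same comparison without a test. The members were chosen with earlier results of these data known. The shares of all genes or probe sets beside their counts, here and above, are therefore no test of the members. The shares of all genes below also take in genes that were not detected, while 29 of the 30 members were detected. The reference was higher on the DMSO arrays, and its part in these shares was not tested. Both [BF/S+L/Ep] arrays lay above both DMSO arrays for 9 of 30 members at 4 h and for 10 at 12 h, where 14.7% of all 18193 genes did so at 4 h and 14.7% at 12 h. At both times this held for 7 members, Nfe2l2, Gclc, Slc7a11, Txnrd1, Srxn1, Blvrb and Cbr3, against 3.51% of all genes. Both [BF/S+L/Ep] arrays lay below both DMSO arrays at both times for 0 members, against 4.91% of all genes. At 4 h this held for 4 members, Prdx4, Taldo1, Tkt and Cat (18.4% of all genes), and at 12 h for 2, Gpx1 and Fth1 (21.6%). The margins of the 4 members at 4 h were narrow, the narrowest that of Prdx4 (4325 against 4329.6). Since 1 array in a group is easier to place than 2, the count of members above rose with an array of that time left out, and so did that of all genes. At 4 h it was 11 without the first DMSO array of 4 h (29.2% of all genes) and 13 without the second (30.4%). It was 15 without the first [BF/S+L/Ep] array of 4 h (30.5%) and 16 without the second (32%). At 12 h it was 11 without the first DMSO array of 12 h (31%) and 19 without the second (29.8%). Without the first or the second [BF/S+L/Ep] array of 12 h it was 15 (29.5% and 28.2%).

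**Figure D1:**
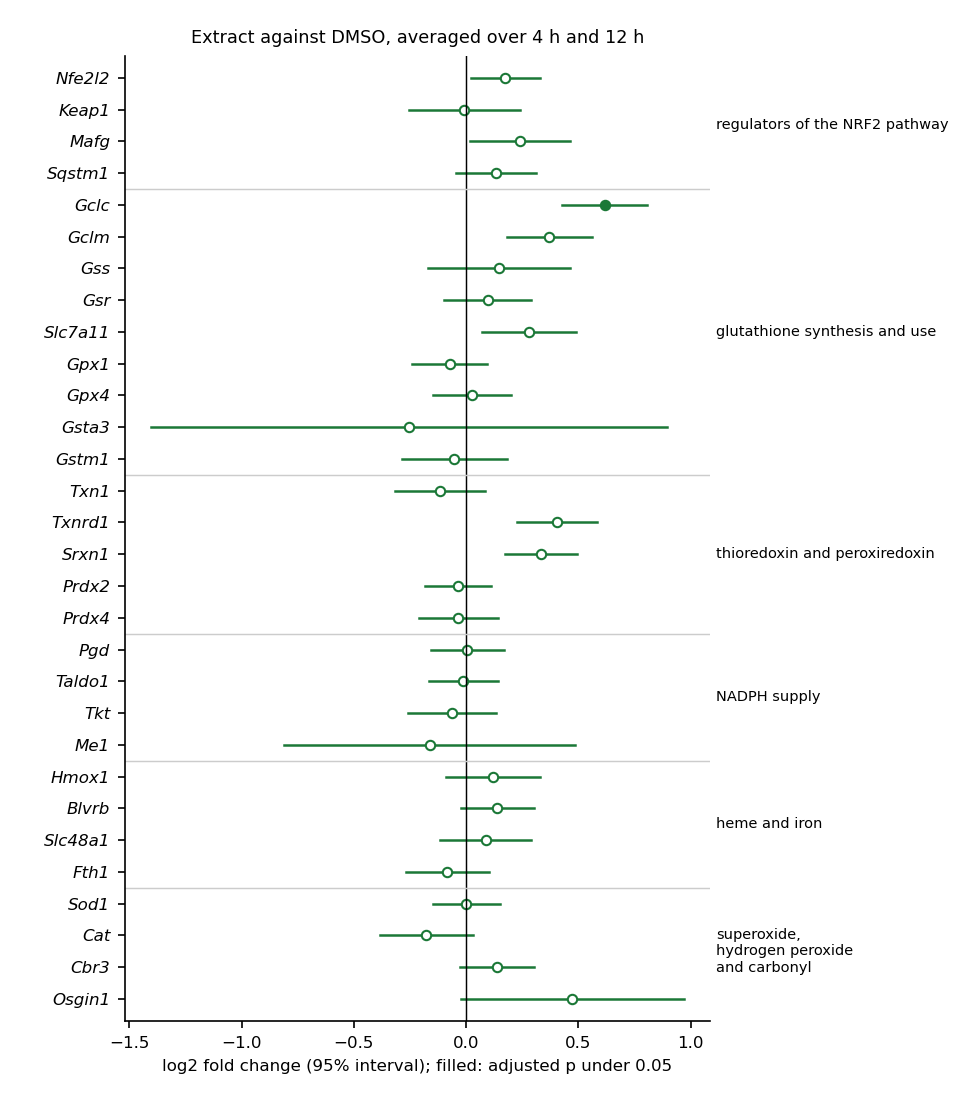
Log2 fold change of [BF/S+L/Ep] against DMSO, averaged over 4 h and 12 h, for the 30 measured members by branch, with 95% intervals from the limma fit of 8 arrays. Gclc, at 0.62, is the filled point, and the open points did not pass the adjusted p of 0.05.

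Gclc gave signals of 1255 and 1272 in DMSO against 1741 and 1959 in [BF/S+L/Ep] at 4 h, and of 881 and 824 against 1459 and 1290.2 at 12 h. The extract arrays lay above the DMSO arrays of their own time at 4 h and at 12 h. The difference was 1.46-fold at 4 h and 1.61-fold at 12 h, neither past the threshold (limma adjusted p = 0.565 and 0.122), and 1.53-fold in the average (95% interval 1.35 to 1.75, limma adjusted p = 0.014). Left out 1 at a time, every array but the first [BF/S+L/Ep] array of 4 h was needed for this call: without any one of the other 7 the adjusted p was 0.0684 to 0.135, and the log2 difference stayed between 0.57 and 0.66. A second Gclc probe set, less bright, differed by 0.13 on the log2 scale (limma adjusted p = 0.851), the mean of both by 0.37 (adjusted p = 0.26), and without the intensity trend of the spread the adjusted p of the first was 0.498. In that last setting, 0 of all probe sets passed.

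Gclm, the modifier subunit of the same enzyme, gave signals of 3207 and 3678 in DMSO against 3302 and 4079 in [BF/S+L/Ep] at 4 h, and of 1988 and 1971 against 3238 and 2963 at 12 h. At 4 h the treated and control arrays overlapped, and at 12 h they did not. Its difference was 1.07-fold at 4 h (95% interval 0.89 to 1.28) and 1.56-fold at 12 h (1.30 to 1.88, limma adjusted p = 0.163). The change of the extract difference between the times, 0.55 on the log2 scale (95% interval 0.17 to 0.93), had the smallest unadjusted p of the members, 0.00747, but an adjusted p of 1. In that test of 12 h against 4 h, 0 members and 0% of the 45037 probe sets passed, with 1 member and 1647 probe sets (3.66%) at an unadjusted p under 0.05. The second Gclm probe set ran the other way, at -0.37 on the log2 scale at 12 h and -0.24 in the average, and its 673 and 621 in DMSO at 12 h lay above its 522 and 483 in [BF/S+L/Ep].

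Slc7a11, the cystine importer that supplies the cysteine of glutathione, gave signals of 1277 and 1150.2 in DMSO against 1288 and 1596 in [BF/S+L/Ep] at 4 h, and of 1196 and 1278 against 1442 and 1649 at 12 h. Both treated arrays were above both controls at each time, at 4 h by a narrow margin. The average difference was 1.22-fold (95% interval 1.05 to 1.40) and did not pass (limma adjusted p = 0.56). On the second Slc7a11 probe set, less bright, treated and control arrays overlapped at both times. Its average difference was 1.11-fold (95% interval 0.875 to 1.41, limma adjusted p = 0.886). The other members that make, use or recycle glutathione did not pass either. Over the 8 arrays, Gss ranged over 366 to 542, Gsr over 1428 to 2165, Gpx1 over 33257 to 40706, Gpx4 over 13526 to 16449.7 and Gstm1 over 1623 to 2994. In the average of both times, glutathione synthetase (Gss) was at 1.11-fold, glutathione reductase (Gsr) at 1.07-fold, the peroxidases Gpx1 and Gpx4 at 0.95-fold and 1.02-fold, and the transferase Gstm1 at 0.96-fold, with adjusted p from 0.867 to 0.971 (limma). Gsta3, another transferase, was under the reference on 8 arrays, with signals of 29.6 to 72.1, and no fold is given for it.

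**Figure D2:**
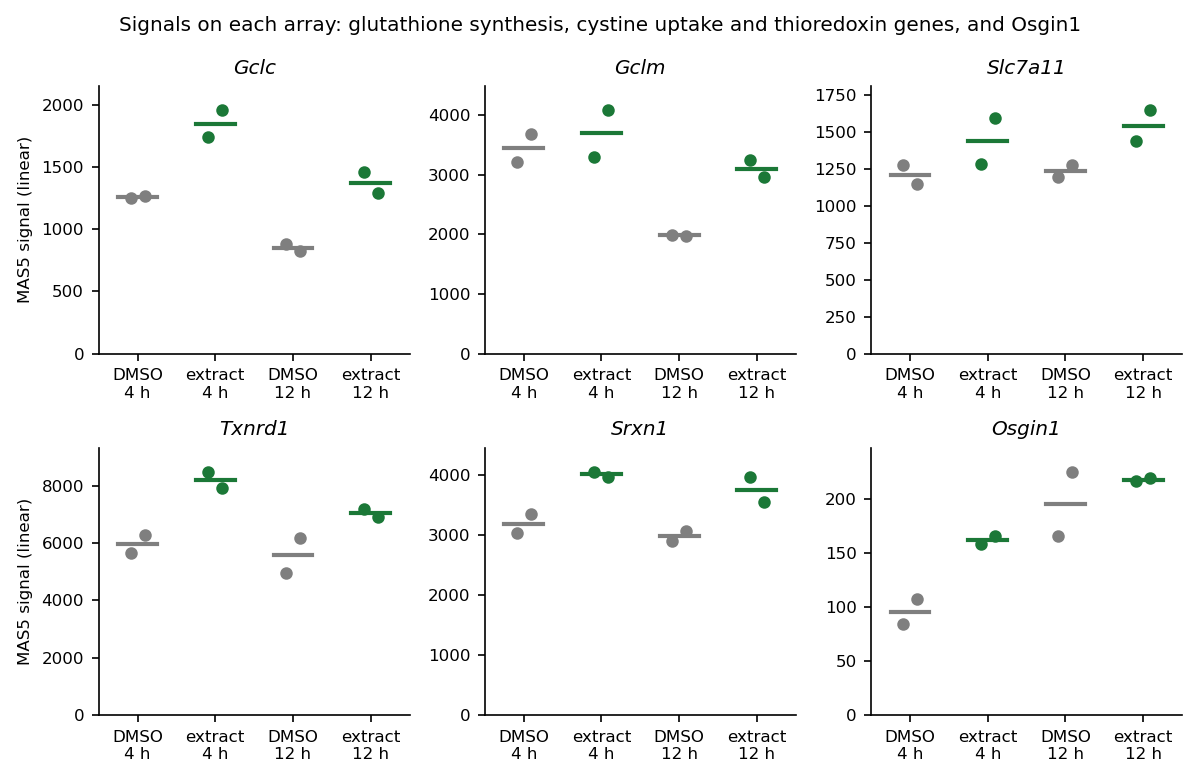
MAS5 signals (linear axis from 0) of Gclc, Gclm, Slc7a11, Txnrd1, Srxn1 and Osgin1 on each of the 8 arrays, with points for arrays, bars for the mean of the 2 arrays and 1 panel per gene with its own scale. For Gclc, Slc7a11, Txnrd1 and Srxn1 both green points lie above both grey points at each time.

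In the thioredoxin branch, Txnrd1 and Srxn1 gave higher signals on treated arrays at both times, without passing the test, and the 2 peroxiredoxins measured did not. Txnrd1, the cytosolic reductase that keeps thioredoxin reduced, gave signals of 5642 and 6291 in DMSO against 8487 and 7933 in [BF/S+L/Ep] at 4 h, and of 4965 and 6171 against 7184 and 6897 at 12 h. No treated array overlapped a control array of its time. It differed 1.38-fold at 4 h, 1.27-fold at 12 h and 1.32-fold in the average (95% interval 1.17 to 1.50, limma adjusted p = 0.134). Its other probe sets, 2 in number, were at 0.71 and 0.31 on the log2 scale in the average, where the brightest was at 0.40. Srxn1, sulfiredoxin, repairs overoxidized peroxiredoxins, and the promoter stretches printed for it above are TGAGNNNGC matches. It gave signals of 3026 and 3344 in DMSO against 4052 and 3974 in [BF/S+L/Ep] at 4 h, and of 2906 and 3059 against 3961 and 3548 at 12 h. Again the groups did not overlap, and its average difference was 1.26-fold (95% interval 1.13 to 1.41, limma adjusted p = 0.208). Its other 3 probe sets were also higher in the average, by 0.47, 0.21 and 0.47 on the log2 scale, each with adjusted p over the threshold. Txn1 ranged over 21105 to 27894 and Prdx2 over 6854 to 7948, with treated and control arrays overlapping at both times. Thioredoxin itself (Txn1) was at 0.92-fold in the average, Prdx2 at 0.98-fold and Prdx4 at 0.98-fold, with intervals that include 1 (0.80 to 1.06, 0.88 to 1.08 and 0.86 to 1.10). The second Prdx4 probe set, less bright, gave signals of 1434 and 1816 in DMSO against 1337 and 1294 in [BF/S+L/Ep] at 4 h, and of 1591 and 1268 against 1223 and 1036 at 12 h. Its treated arrays lay below its controls at both times, at 0.80-fold in the average (95% interval 0.68 to 0.94, limma adjusted p = 0.559).

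Among the regulators, Nfe2l2 and Mafg gave higher mean signals with the extract at both times, and neither passed the test. Nfe2l2 gave signals of 12179.6 and 12437 in DMSO against 14657 and 14425 in [BF/S+L/Ep] at 4 h, and of 16666 and 15936 against 18473 and 16716 at 12 h. The groups did not overlap at either time, although the second treated array of 12 h lay just above the controls. The average difference was 1.13-fold (95% interval 1.02 to 1.25, limma adjusted p = 0.647). Mafg gave signals of 912 and 767 in DMSO against 991 and 968 in [BF/S+L/Ep] at 4 h, and of 1166 and 1387 against 1653 and 1384 at 12 h, with overlap at 12 h, and an average difference of 1.18-fold (95% interval 1.01 to 1.38, limma adjusted p = 0.683). Keap1 gave signals of 1038 and 1138 in DMSO against 1212 and 859 in [BF/S+L/Ep] at 4 h, and of 928 and 928 against 1051 and 910.2 at 12 h. Its treated and control arrays overlapped at both times, and the average was 0.99-fold (95% interval 0.84 to 1.18), while its second probe set was at 0.49 on the log2 scale (limma adjusted p = 0.596). Sqstm1, the autophagy receptor that binds KEAP1, ranged over 10149.8 to 13385 and was at 1.10-fold (0.97 to 1.24).

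**Figure D3:**
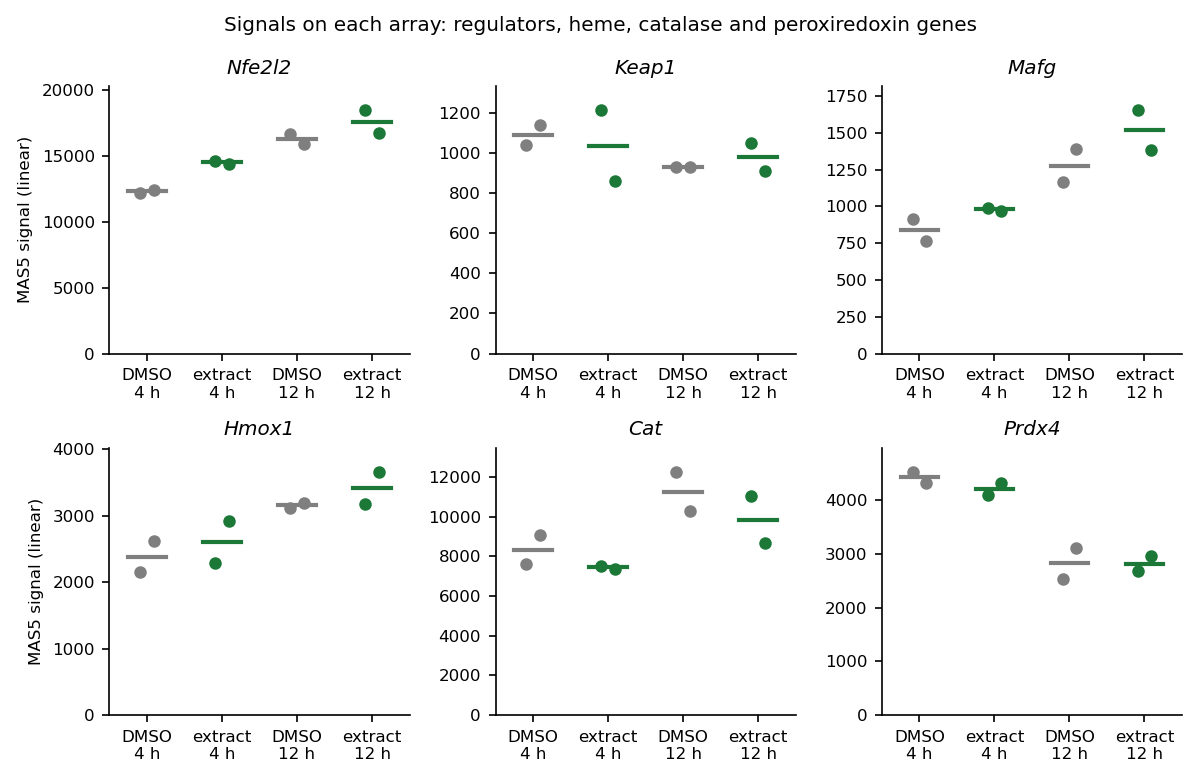
MAS5 signals (linear axis from 0) of Nfe2l2, Keap1, Mafg, Hmox1, Cat and Prdx4 on each of the 8 arrays, with points for arrays, bars for the mean of the 2 arrays and 1 panel per gene with its own scale. Both 12 h groups lie above both 4 h groups for Nfe2l2, Mafg and Hmox1, and below them for Prdx4.

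The genes of the NADPH branch did not pass the test. Pgd ranged over 19776 to 23946 and Taldo1 over 13223 to 15151 on the 8 arrays. In the average, 6-phosphogluconate dehydrogenase (Pgd) was at 1.003-fold (95% interval 0.90 to 1.12), transaldolase (Taldo1) at 0.99-fold (0.89 to 1.10) and transketolase (Tkt) at 0.96-fold (0.83 to 1.10). The upper ends of these intervals lie below the 1.53-fold seen for Gclc, but Gclc is singled out here as the member that passed. Its second probe set was at 1.095-fold (95% interval 0.93 to 1.29), so no difference between the branches is drawn from this. The other Pgd probe sets, 3 in number, did not run one way in the average, at 0.04, -0.14 and 0.26 on the log2 scale, and the last of these, the least bright, was at 1.20-fold (95% interval 1.06 to 1.36, limma adjusted p = 0.531). Tkt, the member of this branch with the smallest p at 4 h, gave signals of 26973 and 23496 in DMSO against 22918 and 23387 in [BF/S+L/Ep] at 4 h, and of 18552 and 21997 against 18199.9 and 22181 at 12 h. Both treated arrays lay below both controls at 4 h by a narrow margin, and at 12 h the groups overlapped. Malic enzyme (Me1), close to the reference, gave signals of 148 and 134 in DMSO against 125 and 198 in [BF/S+L/Ep] at 4 h, and of 181 and 132 against 77.7 and 157 at 12 h, with overlap at both times and a wide interval in the average (0.57 to 1.40).

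In the heme and iron branch, Hmox1 did not stand apart between treated and control cells. Hmox1, heme oxygenase 1, gave signals of 2153 and 2610.1 in DMSO against 2286 and 2916 in [BF/S+L/Ep] at 4 h, and of 3113 and 3188 against 3176 and 3657 at 12 h. The groups overlapped at 4 h and at 12 h, and the average difference was 1.08-fold (95% interval 0.94 to 1.25, limma adjusted p = 0.842). Blvrb, biliverdin reductase B, gave signals of 7885 and 8630.5 in DMSO against 9158 and 8994 in [BF/S+L/Ep] at 4 h, and of 8245 and 9569 against 9645 and 9949 at 12 h. Both treated arrays lay above both controls at each time, but by less than the controls of that time differed from each other. The average was 1.10-fold (0.98 to 1.23). The heme transporter Slc48a1 ranged over 2319 to 3552 and was at 1.06-fold. Fth1, the ferritin heavy chain, gave signals of 56988 and 61762 in DMSO against 63058 and 53456 in [BF/S+L/Ep] at 4 h, and of 62297 and 61525 against 55879 and 56830.0 at 12 h, close to the highest signals of the arrays (63008 to 72771), and was at 0.94-fold in the average.

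Of the remaining members, Cat and Sod1, which remove hydrogen peroxide and superoxide, were at 0.88-fold (95% interval 0.77 to 1.02) and 1.001-fold (0.90 to 1.11) in the average. Sod1 ranged over 4366 to 4814. Cat gave signals of 7583 and 9067 in DMSO against 7522 and 7377 in [BF/S+L/Ep] at 4 h, and of 12252 and 10262 against 11012 and 8642 at 12 h. Its treated arrays were below its controls at 4 h by a narrow margin and overlapped them at 12 h. Cbr3, a carbonyl reductase, gave signals of 2655 and 2696 in DMSO against 2729 and 3055 in [BF/S+L/Ep] at 4 h, and of 2057 and 2269.7 against 2348 and 2491 at 12 h, and was higher on each treated array than on each control array of its time by a small margin, 1.10-fold in the average (limma adjusted p = 0.761). Osgin1, an oxidative stress response gene, gave signals of 84.3 and 108 in DMSO against 158 and 166 in [BF/S+L/Ep] at 4 h, and of 166 and 226 against 217 and 220.0 at 12 h, the first of these below the reference of its array. At 4 h its treated arrays were above both controls, 1.70-fold (95% interval 1.05 to 2.77, limma adjusted p = 0.997), and at 12 h they lay within the range of the controls.

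More members passed the test between 4 h and 12 h than with the extract, and so did more of all probe sets. Over all probe sets, 40 passed as higher and 8 as lower with the extract in the average, against 533 and 415 with time in DMSO. Time and anything else that differed between the harvests cannot be told apart. In DMSO-treated cells, 3 members passed the test as lower at 12 h, Gclm, Prdx4 and Gclc, where 415 (0.921%) of all probe sets did so, and 280 (2.57%) of the 10879 detected genes. As higher, 0 members passed against 533 probe sets (1.18%), with 7 members higher and 5 lower at an unadjusted p under 0.05 (6.79% and 5.57% of all probe sets, 10.2% and 11.4% of detected genes). With quantile normalization 1 passed as higher, Nfe2l2 (limma adjusted p = 0.016), and with each array centred on its median only Gclm remained among the lower (0.00979). The median log2 change of the members was 0.03, and that of all probe sets 0.03. Gclm was 1.74-fold lower at 12 h than at 4 h (limma adjusted p = 0.00387), with both 12 h arrays, 1988 and 1971, below 3207 and 3678. Gclc was 1.48-fold lower (limma adjusted p = 0.0311), and its second probe set was lower too, by -0.43 on the log2 scale (adjusted p = 0.256), while the second Gclm probe set was at 0.00. Prdx4, the peroxiredoxin of the endoplasmic reticulum, gave signals of 4531 and 4329.6 in DMSO against 4107 and 4325 in [BF/S+L/Ep] at 4 h, and of 2539 and 3109 against 2675 and 2963 at 12 h, and both 12 h groups lay below both 4 h groups. In DMSO it was 1.58-fold lower at 12 h (limma adjusted p = 0.00993), and the next probe sets by brightness were at -0.18 and -0.20 on the log2 scale without passing.

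These falls in DMSO rest on single arrays in part. The Gclm call was lost without the second DMSO array of 4 h (limma adjusted p = 0.0911) or the second of 12 h (0.0522), and the Gclc call without any of the 4 DMSO arrays (0.115 to 0.215). The Prdx4 call was lost without either DMSO array of 4 h (0.114 and 0.0931) or the first of 12 h (0.121). The DMSO arrays of 12 h enter these falls and the extract differences at 12 h alike, so the 2 comparisons of Gclm and Gclc are not independent.

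In [BF/S+L/Ep]-treated cells, 1 member passed as lower at 12 h than at 4 h, Prdx4, against 591 probe sets (1.31%) and 381 detected genes (3.5%), and 1 as higher, Mafg, against 698 (1.55%) and 391 (3.59%). With quantile normalization Nfe2l2 passed as well (limma adjusted p = 0.0489), and with each array centred on its median neither Prdx4 nor Mafg did (0.0821 and 0.182). The median log2 change of the members was -0.03, and that of all probe sets 0.02. Prdx4 was 1.50-fold lower (limma adjusted p = 0.0162), close to its change in DMSO. Mafg was 1.54-fold higher (limma adjusted p = 0.0356) and 1.52-fold higher in DMSO (adjusted p = 0.052), where it did not pass, and the difference between these changes, 0.02 on the log2 scale, had an adjusted p of 1. Its second probe set was at 0.41 and 0.65 on the log2 scale. The Prdx4 call was lost without any of the 4 [BF/S+L/Ep] arrays (limma adjusted p = 0.055 to 0.173), and the Mafg call without any of these or either DMSO array of 4 h (0.0528 to 0.298), which enters only through the shared spread. Gclc was at -0.43 on the log2 scale in treated cells (adjusted p = 0.0982) and Gclm at -0.24 (adjusted p = 0.413).

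Several members were higher at 12 h in both treatments without passing. Nfe2l2 was 1.32-fold higher in DMSO (limma adjusted p = 0.0587) and 1.21-fold in [BF/S+L/Ep], with all 4 arrays of 12 h above all 4 of 4 h. Hmox1 was at 1.33-fold and 1.32-fold, Gsr at 1.30-fold and 1.30-fold, Gstm1 at 1.35-fold and 1.42-fold and Cat at 1.35-fold and 1.31-fold. Their adjusted p lay between 0.114 and 0.225 (limma). Osgin1, close to the reference in DMSO at 4 h, was at 2.03-fold in DMSO and 1.345-fold in [BF/S+L/Ep] (limma adjusted p = 0.165 and 0.648). Its 12 h arrays lay above its 4 h arrays in each treatment. Markers of several cell types changed in the same interval. Of 10 macrophage markers measured, 5 passed as higher at 12 h in DMSO and 4 in [BF/S+L/Ep], Adgre1, Cd14, C1qa and C1qb in both, and their summed level went from 73249 to 73698 at 4 h to 86843 to 87468 at 12 h in DMSO and from 72043 to 73039 to 85217 to 92154 in [BF/S+L/Ep]. Fcgr1, another macrophage marker, was at 0.81-fold and 0.83-fold without passing, and Marco alone was under the reference on 8 arrays. Of 13 dendritic cell markers, Zbtb46 passed as higher in both treatments (1.72-fold and 1.63-fold, limma adjusted p = 0.0093 and 0.0138), with summed levels of 220519 to 243814 over all arrays. The rest of that list did not run one way. Without passing, Ccr7 was at 1.48-fold in DMSO and 1.49-fold in [BF/S+L/Ep], and Itgax at 0.77-fold and 0.79-fold. Of 4 eosinophil markers, Siglecf passed as lower in both (1.56-fold and 1.53-fold), while Epx, Prg2 and Ccr3 were above the reference on 0 arrays. Of 6 plasmacytoid dendritic cell markers, Ccr9 passed as higher in [BF/S+L/Ep], while Tcf4 was at 0.83-fold in DMSO and 0.80-fold in [BF/S+L/Ep] without passing. Siglech, of the same list, was above the reference on 0 arrays. The part of these cells in the changes of the members was not tested.

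**Figure D4:**
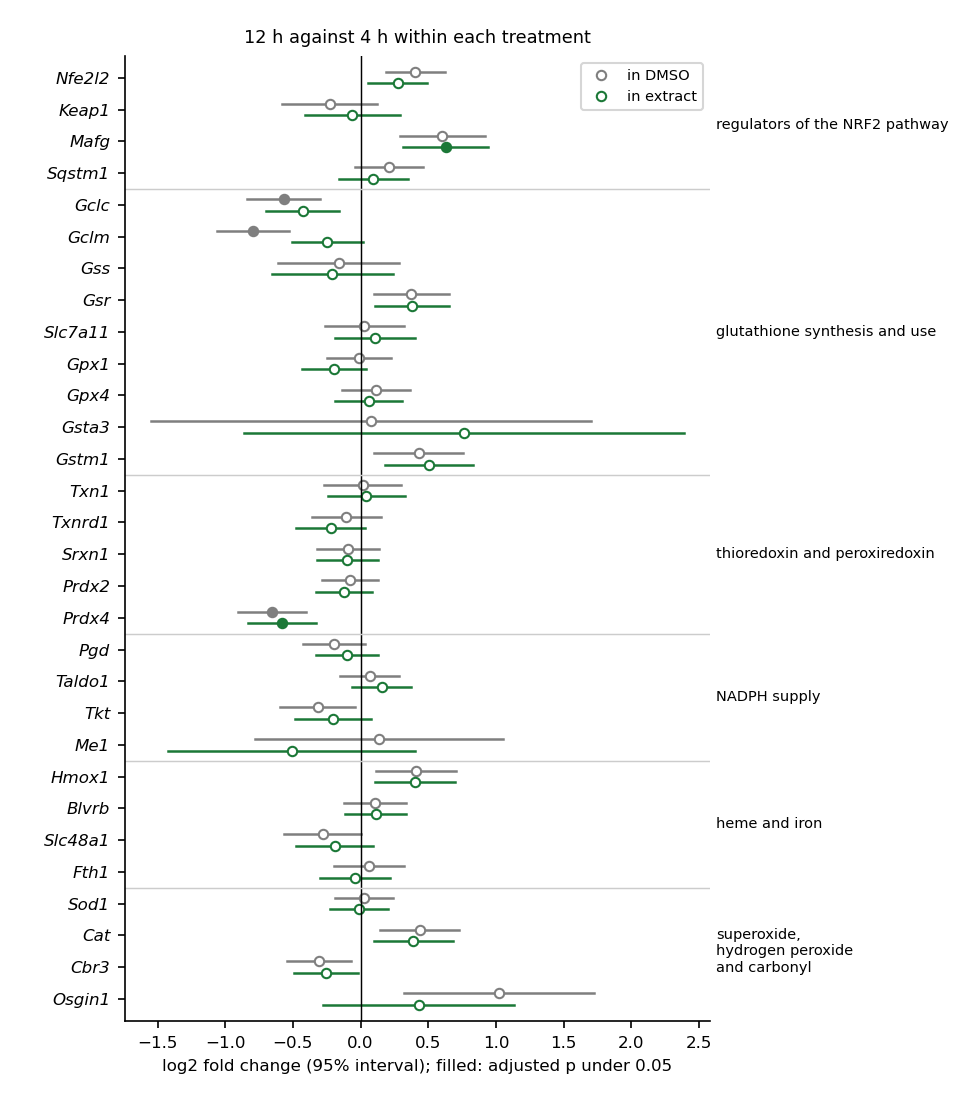
Log2 fold change of 12 h against 4 h for the 30 measured members, in DMSO (grey) and in [BF/S+L/Ep] (green), with 95% intervals from the limma fit. Filled points passed the adjusted p of 0.05: Gclc, Gclm and Prdx4 below 0 in DMSO, and Prdx4 below and Mafg above 0 in [BF/S+L/Ep].

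A wider list of 107 genes of the same pathways, of which 101 were measured, gave 0 calls for the extract at 4 h, at 12 h or in the average, with 8 higher and 6 lower in the average at an unadjusted p under 0.05, against 3.2% and 3.88% of all probe sets and 4.55% and 5.15% of detected genes. Nqo1, the quinone reductase often used to read NRF2 activity, gave signals of 456 and 431 in DMSO against 589.8 and 635 in [BF/S+L/Ep] at 4 h, and of 437 and 356 against 612 and 668 at 12 h. Its treated arrays were above its controls at both times, and the average difference of 1.50-fold did not pass (limma adjusted p = 0.134). Tfrc, the transferrin receptor, gave signals of 3063 and 3204 in DMSO against 3628 and 3402 in [BF/S+L/Ep] at 4 h, and of 3208 and 3014 against 5023 and 4406 at 12 h, and was 0.38 higher on the log2 scale in the average (limma adjusted p = 0.114). Between 4 h and 12 h in DMSO, 4 of the 101 rose, the metal transporter Slc11a1 (1.13 on the log2 scale), the ferritin receptor Ncoa4 (0.59), the mitochondrial dismutase Sod2 (0.58) and the NADPH oxidase subunit Ncf4 (0.60), and 1 fell, the glutathione transferase Mgst3 (-1.06), where 2.97% of detected genes passed as higher and 2.57% as lower. In [BF/S+L/Ep] the same 5 genes passed in the same directions, and the heme binding gene Hebp1 (0.50) rose as well, where 3.59% and 3.5% of detected genes passed. These comparisons of 12 h with 4 h share no arrays, only the estimate of the spread.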

How the data were processed

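RNA of BMDCs in 4 groups (DMSO or [BF/S+L/Ep], 4 h or 12 h, 2 arrays each, grouped by their labels) was hybridized to Affymetrix Mouse Genome 430 2.0 arrays. The intensity values are the MAS5 signals the authors deposited, linear, 1 per probe set and array, scaled to a trimmed mean of 500 (2% off each end). The sources used here do not state the version of MAS5. Arrays give a signal and no read depth, and each group had only 2 arrays. Symbols came from the platform annotation (34945 of 45037 probe sets with 1 symbol). Control probe sets (64) were left out. The members and the lists were chosen with earlier results of these data known.

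Log2 signals were fitted to 4 group means in limma 3.58.1 (R 4.3.3), with an intensity trend, two-sided tests, Benjamini-Hochberg adjustment over 45037 probe sets, a threshold of 0.05 and 95% intervals, and the fit was tested on simulated data. All 8 arrays shared 1 spread. All values on each array were given for members that passed in any of 6 contrasts, for Nfe2l2, Keap1, Hmox1, Gclm, Gclc, Slc7a11, Txnrd1 and Srxn1, and for the member with the smallest p in each branch and treatment contrast. Cat was added after its values were seen. Of the wider list, at most 6 passing genes per contrast were named, by smallest p, and Nqo1 and Tfrc after their values were seen. Alternatives were other scalings, an offset of 50, a filter, other moderation, a replicate block, other probe sets and each array left out. The TGAGNNNGC spelling was added after the first motif search. Figures used matplotlib 3.10.9.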

Additional observations from a re-analysis of the deposited data

How the results depend on the processing

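No alternative gave a member passing for [BF/S+L/Ep] against DMSO at 4 h, at 12 h or for the difference between the times. Without the intensity trend, 0 of all probe sets passed in any of the 6 contrasts, so 0 members could pass there. With each array centred on its median, 215 of all probe sets passed as higher and 290 as lower with time in DMSO. In [BF/S+L/Ep] these were 334 and 379. In the average, the 1 member higher (Gclc) became 0 without the intensity trend, with the second-brightest probe set and with the mean over all probe sets of a gene, and 0 to 1 with an array left out. For 12 h against 4 h in DMSO, the 3 members lower became 1 with each array centred on its median, 0 without the trend, with the second-brightest probe set and with the gene mean, and 0 to 3 with an array left out. The 0 higher became 1 after quantile normalization, robust moderation, with the 2 DMSO groups alone (Nfe2l2 in each) or the gene mean (Mafg), 2 with the filter at the reference, and 0 to 1 with an array left out. In [BF/S+L/Ep], the 1 higher became 2 after quantile normalization, and 0 after median centring, without the trend, with the 2 groups alone or the second-brightest probe set. With the gene mean it stayed 1, but Mafg was lost (limma adjusted p = 0.0575) and Gsr passed instead (0.0476). The 1 lower became 0 after median centring, without the trend, with the second-brightest probe set or the gene mean. Both counts ranged from 0 to 1 with an array left out. With an array left out, the members without overlap numbered 9 to 16 for 4 h, 10 to 19 for 12 h and 7 to 9 for both, where 14.7% to 32%, 14.7% to 31% and 5.35% to 6.71% of all genes were so. A group left with 1 array was assumed to vary like the others. Of the members' values, 3 changed sign, all of Gclm with its second probe set: at 12 h (-0.37), in the average (-0.24) and in the difference between the times (-0.26). Apart from the alternatives named, the cause of these changes was not tested.

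Same-numbered arrays deviated together only weakly (correlations of -0.03 to 0.11 over 23406 probe sets), so the numbers were not taken as pairs. With the replicate block, 1 member passed as higher in the average, 3 as lower with time in DMSO, and 1 as lower and 1 as higher with time in [BF/S+L/Ep], as without it.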
